A study of Gallus gallus with 9 samples.

Results

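The matrix proteases and TIMP inhibitors of the chicken retinal pigment epithelium (RPE) were taken as every measured gene whose symbol begins with MMP, TIMP, ADAM, ADAMTS or ADAMTSL and goes on with a number. This rule used symbols only and gave 43 genes of the 16635 measured, made up of 3 TIMPs, 11 MMPs, 11 ADAMs, 16 ADAMTSs and 2 ADAMTSLs. RNA was measured in 9 libraries of RPE cut by laser from frozen sections of embryonic day 4 White Leghorn embryos, with 3 libraries, each from a separate embryo, in each of 3 groups. Intact RPE had no surgery, t-rRPE (transiently reprogrammed) was collected 6 h after the neural retina had been removed (retinectomy), and rRPE (reprogrammed) 6 h after the same surgery with a bead soaked in FGF2 (fibroblast growth factor 2) placed in the eye cup. In rRPE only the epithelium close to the bead was captured, so FGF2, the bead and the place of capture cannot be told apart, and surgery and time after it likewise go together.

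These families cut and remodel the material around and on the surface of cells. MMPs (matrix metalloproteinases) are zinc proteases that digest collagens, laminins and other matrix proteins, ADAMs sit in the cell membrane and release the outer part of membrane proteins (shedding), and ADAMTSs are secreted and process procollagens, proteoglycans and microfibrils. TIMPs (tissue inhibitors of metalloproteinases) block the active site of these enzymes. The RPE rests on Bruch's membrane, a sheet of basement membranes, collagen and elastin, and TIMP3 made by the RPE is held in that sheet.

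All values below are normalized counts, that is reads on a gene divided by a size factor of the library, and libraries are given as replicates 1, 2 and 3 of each group. Reads on genes came to between 26167206 and 45563924 per library, and 1 read was worth 0.768 to 1.303 normalized counts. Differences were tested with limma on log2(normalized count + 1) over 16535 genes at once, and a gene was called when its Benjamini-Hochberg adjusted p was at most 0.05 and its log2 fold change at least 1 in size. Because counts were not divided by gene length, levels are compared between libraries and not between genes. All 12 RPE markers were measured, with summed levels of 346269.9 to 388920.6 in RPE, 344635.9 to 455470.9 in t-rRPE and 269000.3 to 415775.9 in rRPE. These sums overlap, while *MITF*, a transcription factor of pigment cells, was called as lower in rRPE against RPE and *OTX2* as lower in rRPE against t-rRPE. With a library left out these calls held in 3 and 0 of 9 fits. In t-rRPE *MITF* also lay below RPE in every library (log2 fold change -1.29, limma adjusted p = 0.0742). It was called there by DESeq2 on the recovered reads and not by limma or edgeR. In rRPE against RPE the median log2 fold change of the 12 was -0.38 (9 below 0), and 8 had an unadjusted p of 0.05 or less (12.0% of all genes tested). Among these 8, *GPNMB* (1.84) and *TTR* (5.5) rose, each with every rRPE library above every RPE library. Neither was called by limma or edgeR, while DESeq2 called *GPNMB*. The libraries also differed in lens markers (9 of 10 measured), which summed to 899.5 to 1269.5 in RPE, 44847.9 to 369026.2 in t-rRPE and 20598.2 to 47505.1 in rRPE.

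Of the 43 members, 9 had a mean normalized count of 1000 or more over the 9 libraries, 15 lay between 100 and 1000, 14 between 10 and 100, and 5 under 10. The 9 in the top class were *TIMP2*, *TIMP3*, *MMP15*, *MMP24*, *ADAM9*, *ADAM10*, *ADAM17*, *ADAMTS3* and *ADAMTS18*. Reads were found in every library for 20 members, and all 43 passed the filter for testing. In 17 members (39.5%, against 17.9% of all genes tested) some group held both a library at 0 and a library at 50 or more, so a mean of 3 libraries says little for these genes. The spread within groups on the log2 scale was smallest for *ADAM10* and *TIMP2* (SD 0.20 each) and largest for *ADAMTS12* (SD 3.97).

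**Figure D1:**
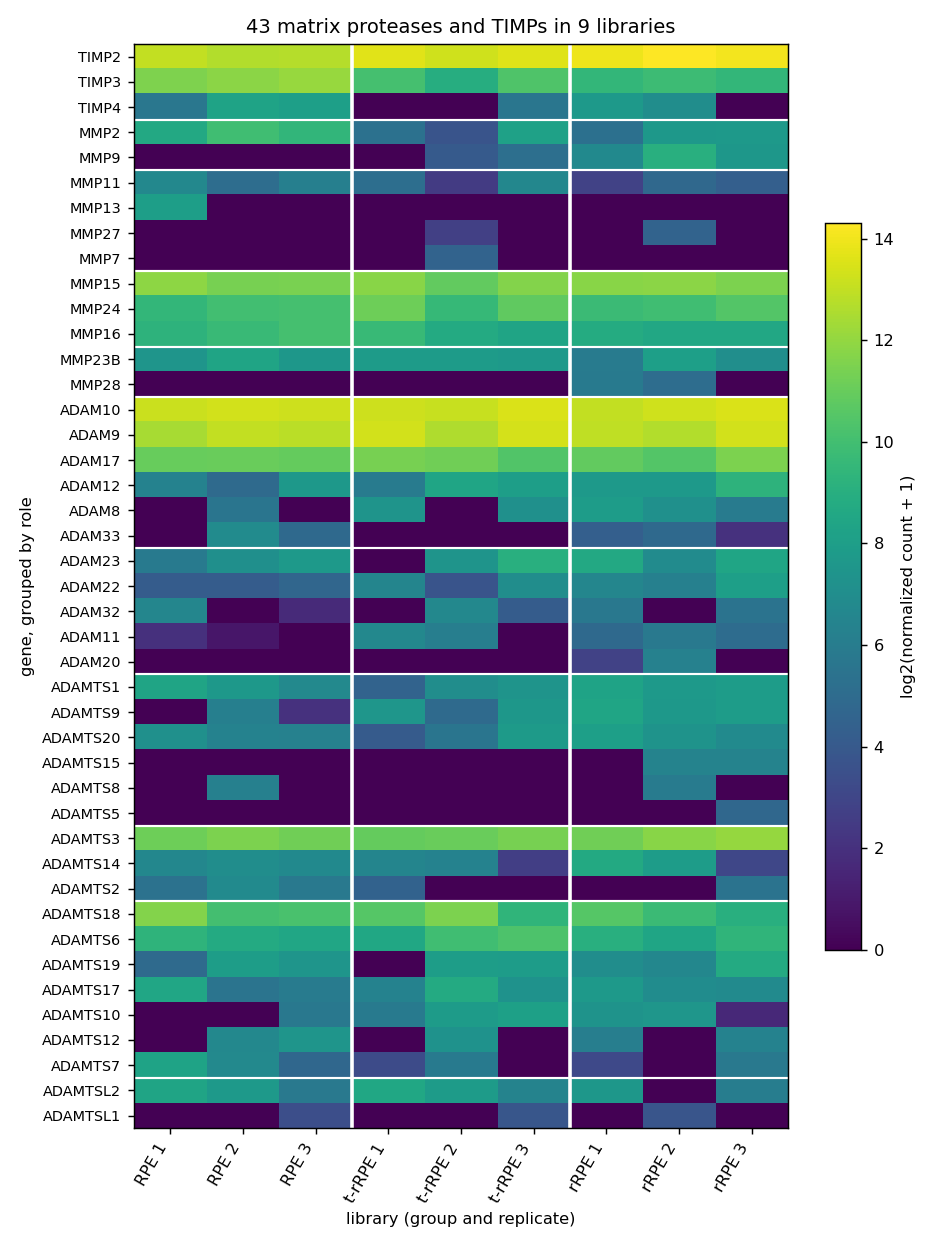
Level of each of the 43 members in each library, as log2(normalized count + 1) by colour, with libraries as columns and genes as rows in blocks by role. The rows of *TIMP2*, *ADAM10* and *ADAM9* are bright throughout, *TIMP3* is brighter in RPE than in the other groups, *MMP9* is dark in all 3 RPE libraries, and many ADAMTS rows mix dark and bright cells within a group.

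The calls fell on few members, and mainly on the inhibitors. Between t-rRPE and RPE, 1 of 43 members was called, *TIMP3* as lower, against a background of 0.671% of all genes tested (0.314% called as lower). Between rRPE and RPE, 3 of 43 were called, *TIMP2* and *MMP9* as higher and *TIMP3* as lower, against a background of 1.03% (0.677% called as higher and 0.351% as lower). Between rRPE and t-rRPE limma called none of the 43 (background 0.0544%), with 5 members with an unadjusted p of 0.05 or less, and edgeR and DESeq2 on the recovered reads also called 0. The median log2 fold change over the 43 members was 0.00 for t-rRPE against RPE, 0.20 for rRPE against RPE and 0.59 for rRPE against t-rRPE, and it was 0.00 over all genes tested in each comparison. These medians were the same when members with a group at the floor of 3 reads per library were set to their bound (11, 9 and 8 members). The comparisons with RPE share the same 3 RPE libraries and are therefore not independent of each other.

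*TIMP3*, which stays bound to the matrix and also inhibits ADAM17 and aggrecan-cutting ADAMTSs, fell in both groups after retinectomy. Its normalized counts were 2976.2, 3613.5 and 4390.0 in RPE, 1102.5, 480.6 and 1337.3 across t-rRPE and 724.9, 916.0 and 715.6 in rRPE. Every library after surgery lay below every RPE library, while t-rRPE and rRPE overlapped. The mean of 3659.9 ± 708.1 (SD, n = 3) in RPE was 3.76 times that of t-rRPE (973.4 ± 442.7) and 4.66 times that of rRPE (785.5 ± 113.1). The log2 fold change was -2.02 for t-rRPE against RPE (SE 0.36, 95% interval -2.81 to -1.23, adjusted p = 0.0355) and -2.21 for rRPE against RPE (SE 0.36, 95% interval -3.0 to -1.42, adjusted p = 0.0169). Between rRPE and t-rRPE it was -0.19 (SE 0.36, 95% interval -0.98 to 0.60, adjusted p = 0.914), and it turned to 0.10 without t-rRPE replicate 3. The t-rRPE call was lost without any 1 library other than t-rRPE replicate 2 (adjusted p 0.0697 to 0.209), with edgeR (0.0552), with the replicate block (0.0592), with only the 6 libraries compared (0.212) and without the trend (0.147). The rRPE call was lost without any 1 of the RPE or rRPE libraries (0.0782 to 0.134) and without the trend (0.0992).

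In bulk RNA of captured tissue, fewer cells of a type and less RNA per cell cannot be told apart. Markers of the vessels and mesenchyme next to the RPE were measured in the same libraries. The 8 of 10 endothelial markers measured summed to 6141.6 to 11526.5 in RPE, 3159.0 to 5092.3 in t-rRPE and 4751.2 to 5034.8 in rRPE, with *CDH5*, the cadherin of endothelial cells, called as lower in both and the other 7 not called by limma. In t-rRPE and rRPE against RPE 4 and 3 of the 8 had an unadjusted p of 0.05 or less, beside 12.4% and 12.0% of all genes tested. EdgeR called *CDH5* alone in both, and DESeq2 also called *KDR* in t-rRPE and *EGFL7* and *TEK* in rRPE. The median log2 fold change of the 8 was -2.11 in t-rRPE (all 8 below 0) and -1.52 in rRPE against RPE, where 5 lay below 0 and *VWF* (1.38), *PECAM1* (0.15) and *CLDN5* (0.03) above it. The 12 markers of periocular mesenchyme summed to 12559.0 to 17867.5 in RPE, 9704.8 to 12105.8 in t-rRPE and 12031.6 to 14397.8 in rRPE. These sums are led by the collagen gene *COL1A2*, whose log2 fold change was 0.33 in t-rRPE and 0.47 in rRPE against RPE, whereas the median of the 12 was -2.30 in t-rRPE (10 of 12 below 0) and -1.46 in rRPE (9 of 12 below 0). None of the 12 was called by limma or edgeR. For t-rRPE and rRPE against RPE 7 and 4 had an unadjusted p of 0.05 or less, beside 12.4% and 12.0% of all genes tested. DESeq2 called 3 and 1 of the 12 in these comparisons, beside 507 and 575 of all 16535 genes. *PDGFRB* was at 0 in the 3 RPE libraries. The part of these tissues in the *TIMP3* result was not tested. *TIMP3* also overlaps *SYN3* in the reference annotation, and the libraries do not record strand, so reads may be shared. *SYN3* was at 8.6, 15.6 and 0.0 in RPE and at 0 in all other libraries.

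*TIMP2*, a soluble inhibitor that at the cell surface also takes part in the activation of pro-MMP2, moved the other way. It reached 8378.8, 6479.3 and 6716.8 in RPE, 12937.5, 10103.3 and 12787.4 in the t-rRPE libraries and 15946.0, 20465.7 and 17345.7 in rRPE. The 3 groups did not overlap at all, with t-rRPE between RPE and rRPE. The mean rose 2.49 times from 7191.6 ± 1034.9 (SD, n = 3) in RPE to 17919.2 ± 2313.8 in rRPE, a log2 fold change of 1.32 (SE 0.16, 95% interval 0.97 to 1.67, adjusted p = 0.00362). The t-rRPE mean of 11942.7 ± 1594.8 was 1.66 times that of RPE and did not pass the test (log2 fold change of 0.73 with SE 0.16 and adjusted p = 0.0772), and rRPE against t-rRPE gave 0.59 (SE 0.16, adjusted p = 0.264). The rRPE call was lost without RPE replicate 2 (adjusted p = 0.0609), RPE replicate 3 (0.0587), rRPE replicate 1 (0.0519) or rRPE replicate 2 (0.0649), and without the trend (0.0808). *CANT1* and *USP36*, whose spans overlap *TIMP2* in the reference annotation, were not called, but in rRPE their means also lay above RPE. The log2 fold change of *CANT1* against RPE was 0.74 in t-rRPE, with every library above RPE (adjusted p = 0.389), and 0.65 in rRPE, with overlap (adjusted p = 0.464). That of *USP36* was 0.04 in t-rRPE (adjusted p = 0.991) and 0.65 in rRPE, with every library above RPE and t-rRPE (adjusted p = 0.488). Whether reads are shared among these genes was not tested.

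*TIMP4* was low and uneven, at 50.9, 318.3 and 272.8 in RPE, 0.0, 0.0 and 48.2 across t-rRPE and 216.2, 128.5 and 0.0 in rRPE. Each t-rRPE library lay below each RPE library, and rRPE spanned both. The log2 fold change of -5.50 for t-rRPE against RPE (SE 2.18, adjusted p = 0.345) did not pass the test, and neither did -2.44 for rRPE against RPE (SE 2.18, adjusted p = 0.724) or 3.05 for rRPE against t-rRPE (SE 2.18, adjusted p = 0.737). *TIMP4* overlaps *SYN2* in the reference annotation, so its reads may be shared.

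The opposite movement of the abundant inhibitors can be read within each library as the ratio of *TIMP2* to *TIMP3* counts. That ratio was 2.82, 1.79 and 1.53 in RPE, 11.7, 21.0 and 9.56 in the t-rRPE libraries and 22.0, 22.3 and 24.2 in rRPE. The groups did not overlap, and on the log2 scale the rRPE libraries lay closest together. Its mean, taken on the log2 scale and turned back, was 6.73 times as high in t-rRPE as in RPE. It was 11.6 times as high in rRPE as in RPE and 1.72 times as high in rRPE as in t-rRPE. These ratios of counts were not tested and do not give the relative amounts of the transcripts, which differ in length.

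**Figure D2:**
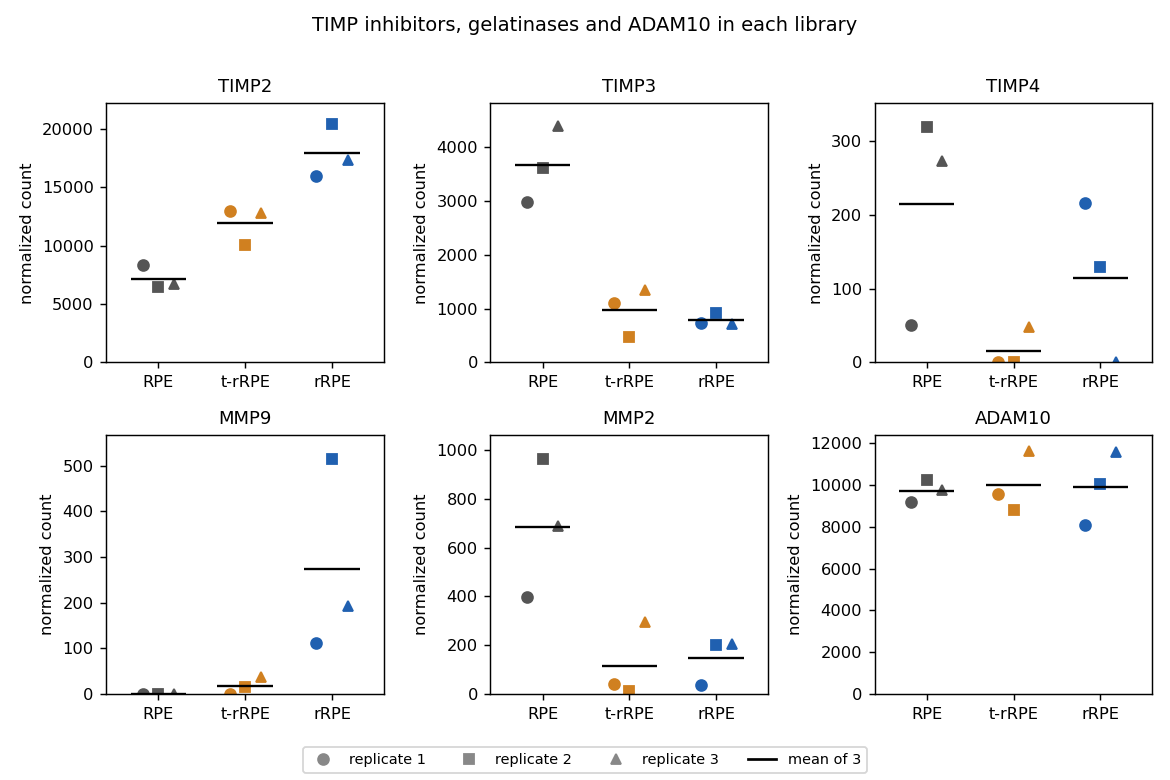
Normalized count of the 3 TIMPs, the gelatinases *MMP9* and *MMP2*, and *ADAM10* in each library, by group on the x axis, with points for replicates and a bar for the mean of 3. *TIMP2* steps up from RPE (6479.3 to 8378.8) through t-rRPE to rRPE (15946.0 to 20465.7), *TIMP3* and *MMP2* are highest in RPE, *MMP9* is at 0 in the 3 RPE libraries, and *ADAM10* overlaps in all 3 groups.

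The gelatinases, which digest denatured collagen and the collagen of basement membranes, lay on opposite sides of intact RPE, and only *MMP9* in rRPE passed the test. *MMP9* was at 0 in all 3 RPE libraries, at 0.0, 15.9 and 36.5 in t-rRPE, and at 111.7, 514.9 and 193.0 in rRPE. All rRPE libraries lay above all t-rRPE and RPE libraries, and rRPE replicate 2 stood highest. The rRPE mean of 273.2 ± 213.3 (SD, n = 3; 791 reads in all) was at least 109-fold higher than RPE, taking 3 reads per library as the floor, and was called (adjusted p = 0.0366). Without rRPE replicate 2 this limit was 60.7-fold. In t-rRPE *MMP9* was at least 6.95-fold higher by the same floor (3.16-fold without t-rRPE replicate 3) and did not pass the test (adjusted p = 0.437), although DESeq2 on the recovered reads called it (0.0117). The step from t-rRPE to rRPE was 4.71 on the log2 scale (SE 1.52, adjusted p = 0.365). The rRPE call was lost without any 1 library other than t-rRPE replicate 1 (adjusted p 0.0509 to 0.168), with edgeR (0.0945) and without the trend (0.0677).

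Macrophages and heterophils, the avian counterpart of neutrophils, are known sources of MMP9, and 7 of their 10 markers were measured. These summed to 1432.8 to 2344.9 in RPE, 1284.7 to 2432.1 in t-rRPE and 1232.5 to 2176.6 in rRPE, which overlap, and limma called none of the 7 in rRPE against RPE (0 with an unadjusted p of 0.05 or less, and 0 called by edgeR or DESeq2). The sums are led by *CSF1R* and *CD74*. The median log2 fold change of the 7 was 1.61 for rRPE against RPE (5 of 7 above 0) and -0.03 for t-rRPE against RPE. For rRPE against t-rRPE it was 2.57 (6 of 7 above 0, and 2.29 with *CSF3R* at its bound), the direction of *MMP9*. The 2 with an unadjusted p of 0.05 or less in that comparison (9.31% of all genes tested) went opposite ways, *LCP1* higher (4.56) and *CSF1R* lower (-1.58). *CSF1R* was also lower in rRPE against RPE (-0.95, with overlap). Single markers were uneven. *LCP1* was at 11.5, 3.9 and 282.8 in RPE, 28.2, 0.0 and 16.9 across t-rRPE and 322.8, 49.1 and 422.0 in rRPE, where each library lay above each t-rRPE library, *SPI1* was at 0 in 5 libraries, and *CSF3R*, a receptor of granulocytes, was at 0 in all RPE and t-rRPE libraries and at 5.1, 38.6 and 0.0 in rRPE. The part of these cells in the *MMP9* result was not tested.

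*MMP2* stood at 397.8, 965.2 and 687.0 in RPE, 40.1, 12.1 and 293.3 in the t-rRPE libraries and 37.6, 201.6 and 206.4 in rRPE. Each RPE library lay above each library of the other groups, yet no difference passed the test. The log2 fold change was -3.57 for t-rRPE against RPE (SE 1.10, 95% interval -5.97 to -1.16, adjusted p = 0.219) and -2.45 for rRPE against RPE (SE 1.10, 95% interval -4.86 to -0.05, adjusted p = 0.408). *MMP2* is a mesenchymal gene in many tissues, and the mesenchyme and endothelial sums given above were highest in RPE replicates 2 and 3, the libraries with most *MMP2*. The other libraries did not all follow this order. The mesenchyme sum of rRPE replicate 1 (14397.8) lay above that of RPE replicate 1 (12559.0), while *MMP2* was at 37.6 and 397.8 in them. The part of these tissues in the *MMP2* difference was not tested.

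Among the membrane-type MMPs, which are anchored at the cell surface, *MMP15* was the most steady, at 3766.1, 2665.5 and 2805.5 in RPE, 3558.0, 1895.4 and 3266.3 across t-rRPE and 3463.9, 3608.7 and 2867.5 in rRPE. The groups overlapped, and the 95% interval of the log2 fold change was -0.68 to 0.44 for t-rRPE and -0.44 to 0.68 for rRPE against RPE. *MMP16* was at 621.8, 844.7 and 1081.2 in RPE, 807.3, 425.6 and 332.4 in the t-rRPE libraries and 456.8, 385.4 and 378.8 in rRPE. Every rRPE library lay below every RPE library, with a log2 fold change of -1.03 (SE 0.41, adjusted p = 0.340) that did not pass the test. *MMP24* overlapped in all groups, at 715.9, 1025.4 and 1078.1 in RPE, 2289.5, 783.0 and 1814.3 across t-rRPE and 877.1, 978.7 and 1463.0 in rRPE.

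The remaining MMPs were scarce. *MMP28* (epilysin, an MMP of epithelia) was at 0 in all RPE and t-rRPE libraries and at 59.9, 33.4 and 0.0 in rRPE, so rRPE was at least 12.4-fold higher than RPE by the floor (6.65-fold without rRPE replicate 1), without passing the test (adjusted p = 0.366). *MMP23B* was present throughout, from 61.9 in rRPE replicate 1 to 333.2 in RPE replicate 2, with overlapping groups. The 4 collagenase and stromelysin types gave few reads. *MMP11* (stromelysin-3) was at 103.8, 33.6 and 72.2 in RPE, 34.7, 4.7 and 99.1 in the t-rRPE libraries and 6.1, 27.2 and 19.5 in rRPE, where all rRPE libraries lay below all RPE libraries. *MMP13*, *MMP7* and *MMP27* were seen in 1, 1 and 2 of the 9 libraries.

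The ADAMs divide into enzymes known for shedding and those best known for adhesion or from the testis. The classic sheddases were among the steadiest members. *ADAM10*, which releases Notch receptors, their ligands and cadherins, was at 9195.6, 10217.1 and 9745.2 in RPE, 9560.7, 8821.9 and 11636.6 across t-rRPE and 8074.0, 10036.5 and 11564.5 in rRPE. The groups overlapped, with log2 fold changes of 0.03 for t-rRPE (95% interval -0.33 to 0.39) and 0.01 for rRPE (95% interval -0.35 to 0.37) against RPE, so a change of the size seen in *TIMP2* in rRPE (1.32) lies outside both intervals. *ADAM9*, whose loss causes a retinal dystrophy in humans, was at 5604.4, 8338.4 and 7249.4 in RPE, 10424.5, 6242.5 and 10741.1 in the t-rRPE libraries and 7795.9, 6425.7 and 10205.2 in rRPE, with 95% intervals of -0.19 to 0.89 and -0.34 to 0.74 against RPE. *ADAM17*, which releases TNF and ligands of the EGF receptor, was at 2001.7, 2093.8 and 1941.8 in RPE, 2719.2, 2398.4 and 1372.5 across t-rRPE and 1901.5, 1447.7 and 2838.8 in rRPE. Its spread was small in RPE and wide in the operated groups, and its 95% intervals were -0.62 to 0.71 for t-rRPE and -0.69 to 0.65 for rRPE against RPE.

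The other sheddases gave fewer reads, and none passed the test. *ADAM12*, which can release heparin-binding EGF, was at 79.8, 29.7 and 198.3 in RPE, 61.9, 336.0 and 258.1 in the t-rRPE libraries and 215.2, 202.6 and 608.8 in rRPE. *ADAM8*, a protease of leukocytes and invasive cells in mammals, was at 0.0, 46.9 and 0.0 in RPE, 171.4, 0.0 and 144.7 across t-rRPE and 242.6, 147.3 and 61.6 in rRPE. In both genes all rRPE libraries lay above all RPE libraries, with a log2 fold change of 5.18 for *ADAM8* (SE 2.13, adjusted p = 0.357). *ADAM33* was at 0.0, 118.1 and 29.2 in RPE, at 0 in all t-rRPE libraries, and at 19.3, 28.2 and 3.1 in rRPE. By the floor it was at least 14.8-fold lower in t-rRPE than in RPE (adjusted p = 0.396), and at least 4.40-fold lower without RPE replicate 2.

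*ADAM11*, *ADAM22* and *ADAM23* lack a working zinc site in mammals and act as neuronal adhesion receptors. *ADAM22* was at 17.3, 17.2 and 25.4 in RPE, 90.1, 12.1 and 129.0 in the t-rRPE libraries and 93.4, 75.2 and 275.1 in rRPE, where all rRPE libraries lay above all RPE libraries (log2 fold change 2.61, SE 1.13, adjusted p = 0.387). *ADAM11* was at 2.9, 0.8 and 0.0 in RPE, 100.9, 68.1 and 0.0 across t-rRPE and 28.4, 55.4 and 32.9 in rRPE, again with rRPE above RPE in every library (adjusted p = 0.344). *ADAM23* was at 57.7, 140.8 and 210.5 in RPE, 0.0, 167.1 and 530.5 in the t-rRPE libraries and 393.9, 118.0 and 335.7 in rRPE, with overlapping groups. *ADAM32* and *ADAM20*, genes of the testis in mammals, reached at most 101.7 and 76.2, and *ADAM20* was seen only in rRPE replicates 1 and 2 of the 9 libraries. Over these 5 genes limma called none in rRPE against RPE, and edgeR and DESeq2 called 0. Of the 5, 2 had an unadjusted p of 0.05 or less, beside 12.0% of all genes tested.

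**Figure D3:**
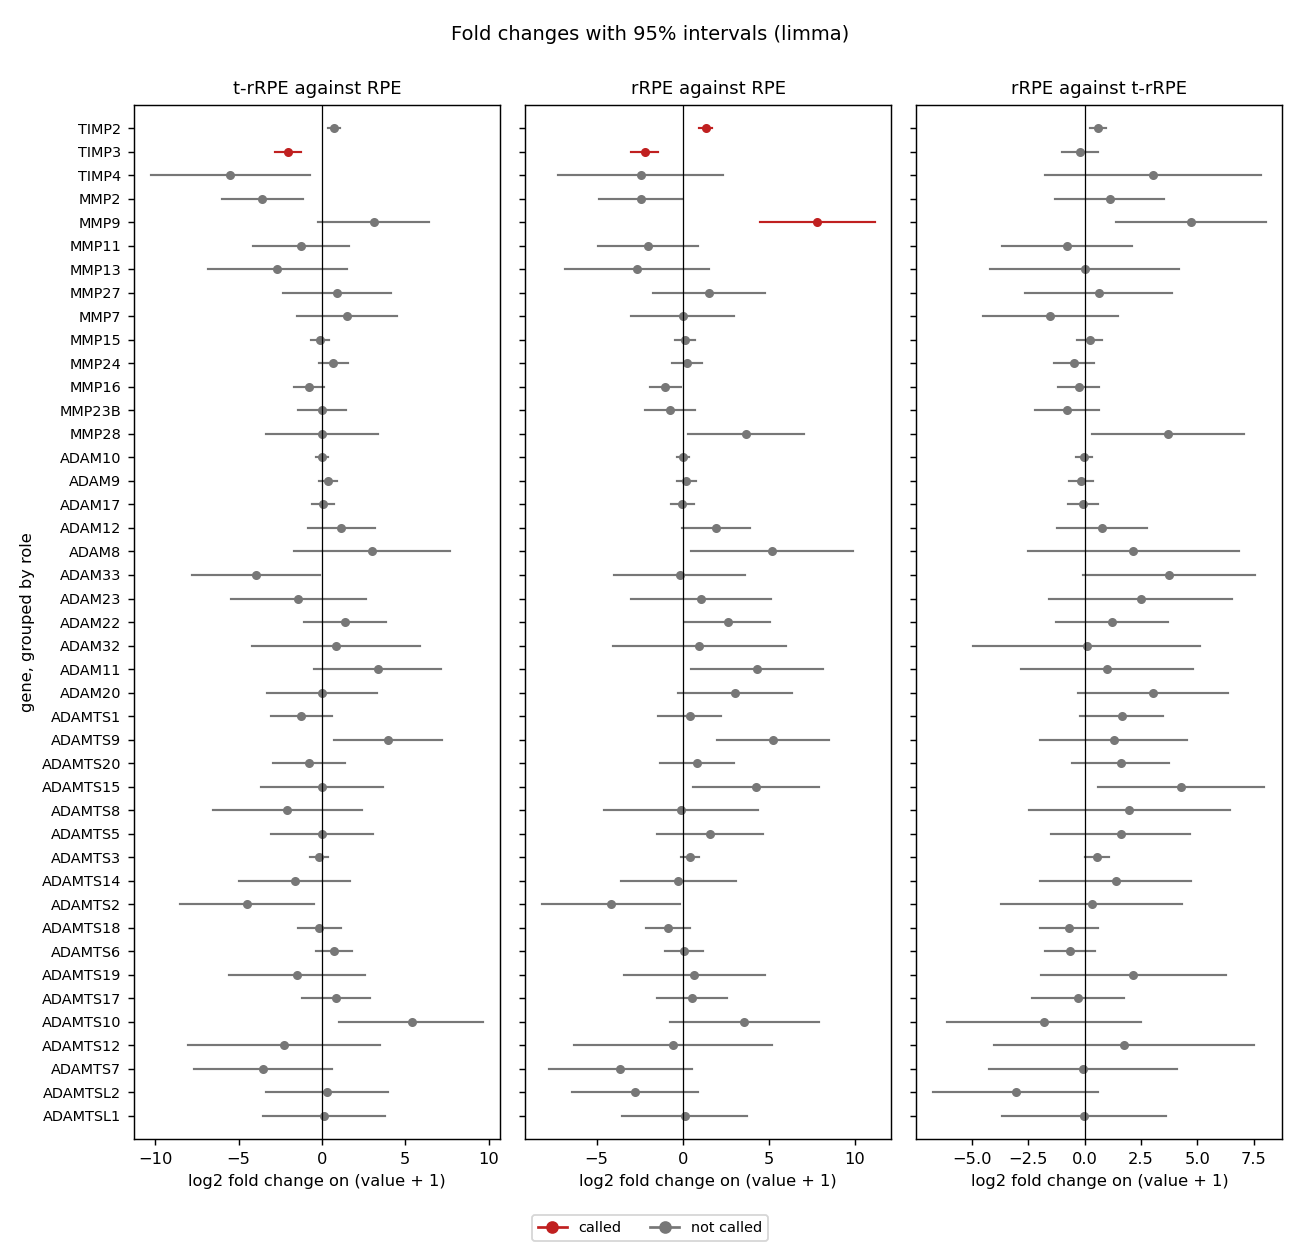
Log2 fold change on (normalized count + 1) of each member with its 95% interval from limma, in the 3 comparisons, with genes in the order of their roles and called members in red. The intervals of *TIMP2*, *ADAM10*, *ADAM9*, *MMP15* and *ADAMTS3* are narrow, those of scarce genes span several log2 units, and red marks *TIMP3* in t-rRPE and *TIMP2*, *TIMP3* and *MMP9* in rRPE against RPE.

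The hyalectanases are the ADAMTSs that cut versican and aggrecan, the large proteoglycans that bind hyaluronan. The 6 measured here summed to 472.8, 422.4 and 186.7 in RPE, 219.2, 205.3 and 576.1 across t-rRPE and 925.9, 705.0 and 700.2 in rRPE, so all rRPE sums lay above all others. These sums were not tested and mix unlike genes. The mean of *ADAMTS9* was 24.5 in RPE and 256.2 in rRPE, and that of *ADAMTS1* 210.3 and 254.6, with overlap. Limma called none of the 6 in rRPE against RPE, and edgeR and DESeq2 called 0. Of the 6, 2 had an unadjusted p of 0.05 or less, beside 12.0% of all genes tested. *ADAMTS9* was at 0.0, 70.4 and 3.1 in RPE, 180.1, 29.9 and 190.3 in the t-rRPE libraries and 336.0, 195.3 and 237.2 in rRPE. The rRPE libraries lay above all others, and the log2 fold change against RPE was 5.24 (SE 1.48, 95% interval 2.00 to 8.49, adjusted p = 0.137), the nearest to the threshold among members that were not called in that comparison. For t-rRPE against RPE it was 3.95 (SE 1.48, adjusted p = 0.317).

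*ADAMTS1*, which also restrains angiogenesis, was at 328.7, 197.1 and 105.3 in RPE, 22.8, 129.7 and 166.8 across t-rRPE and 321.8, 203.7 and 238.2 in rRPE. The rRPE libraries lay above the t-rRPE libraries and within the range of RPE. *ADAMTS15* was at 0 in all RPE and t-rRPE libraries and at 0.0, 82.5 and 84.2 in rRPE, which by the floor was at least 22.1-fold higher than RPE and at least 16.7-fold higher than t-rRPE, without passing either test (adjusted p = 0.327 and 0.50). *ADAMTS20* ranged from 16.3 to 268.0 with overlapping groups. *ADAMTS8* was seen in RPE replicate 2 (75.9) and rRPE replicate 2 (61.6) alone, and *ADAMTS5* in rRPE replicate 3 (26.7) alone.

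The procollagen N-proteinases remove the amino-terminal propeptide of fibrillar procollagens. *ADAMTS3*, which also activates VEGF-C, was at 2329.4, 2893.9 and 2341.4 in RPE, 1979.2, 2128.7 and 2647.2 in the t-rRPE libraries and 2387.8, 3570.1 and 4300.8 in rRPE. The groups overlapped, with log2 fold changes of 0.41 for rRPE against RPE (95% interval -0.12 to 0.93) and 0.57 for rRPE against t-rRPE (SE 0.24, adjusted p = 0.515). *ADAMTS2* was at 40.4, 113.4 and 54.6 in RPE, 21.7, 0.0 and 0.0 across t-rRPE and 0.0, 0.0 and 43.1 in rRPE. Each t-rRPE library lay below each RPE library, and neither log2 fold change against RPE passed the test (-4.50 in t-rRPE, SE 1.83, adjusted p = 0.362; -4.18 in rRPE, SE 1.83, adjusted p = 0.395). *ADAMTS14* was at 98.0, 129.1 and 110.7 in RPE, 91.1, 81.2 and 5.2 in the t-rRPE libraries and 414.2, 242.3 and 7.2 in rRPE, with the third library of each operated group far below its fellows.

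The other ADAMTSs include genes tied to fibrillin microfibrils and to eye disease in humans. *ADAMTS18*, whose loss in humans affects the eye, was at 3224.1, 1041.8 and 1189.5 in RPE, 1500.7, 2862.3 and 664.7 across t-rRPE and 1496.4, 883.6 and 515.4 in rRPE. The libraries of each group lay far apart and the groups overlapped. *ADAMTS6* was at 647.7, 438.8 and 354.2 in RPE, 362.4, 970.6 and 1289.0 in the t-rRPE libraries and 523.9, 342.6 and 664.3 in rRPE, also overlapping. *ADAMTS10*, a gene of Weill-Marchesani syndrome in humans, was at 0.0, 0.0 and 53.0 in RPE, 56.4, 234.2 and 278.9 across t-rRPE and 162.4, 183.8 and 2.1 in rRPE. All t-rRPE libraries lay above all RPE libraries, though by little in replicate 1, and the log2 fold change of 5.37 (SE 1.96, adjusted p = 0.307) did not pass the test. *ADAMTS19* was at 29.8, 252.6 and 173.7 in RPE, 0.0, 248.2 and 238.5 in the t-rRPE libraries and 126.9, 99.2 and 423.0 in rRPE. *ADAMTS7*, *ADAMTS12* and *ADAMTS17* reached at most 312.3, 173.7 and 424.6, each with overlapping groups.

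The ADAMTS-like proteins have the binding domains of ADAMTSs without a protease domain. *ADAMTSL2*, which binds microfibrils, was at 334.4, 205.7 and 54.6 in RPE, 367.8, 231.4 and 83.4 across t-rRPE and 186.8, 0.0 and 66.7 in rRPE. The groups overlapped, with SDs of 140.1, 142.3 and 94.7 in that order. *ADAMTSL1* gave 10.0, 13.0 and 12.5 in 1 library of each group and 0 in the others.

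Members whose groups did not overlap were counted against the same share of all genes tested. For t-rRPE against RPE they numbered 2 higher and 5 lower of 43 (16.3%, against a background of 15.1%, made up of 7.32% higher and 7.83% lower). For rRPE against RPE they numbered 7 higher and 4 lower (25.6%, background 18.6%, with 9.71% higher and 8.94% lower), and for rRPE against t-rRPE 5 higher and 0 lower (11.6%, background 12.5%, with 6.84% higher and 5.68% lower). The 5 that were higher in rRPE than in t-rRPE were *TIMP2*, *MMP9*, *ADAMTS1*, *ADAMTS9* and *ADAM33*. In rRPE against RPE the 7 higher were *TIMP2*, *MMP9*, *ADAMTS9*, *ADAM8*, *ADAM11*, *ADAM12* and *ADAM22*, and the 4 lower were *TIMP3*, *MMP2*, *MMP16* and *MMP11*. Members with an unadjusted p of 0.05 or less made up 18.6%, 27.9% and 11.6% in the 3 comparisons in that order, against 12.4%, 12.0% and 9.31% of all genes tested.

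**Figure D4:**
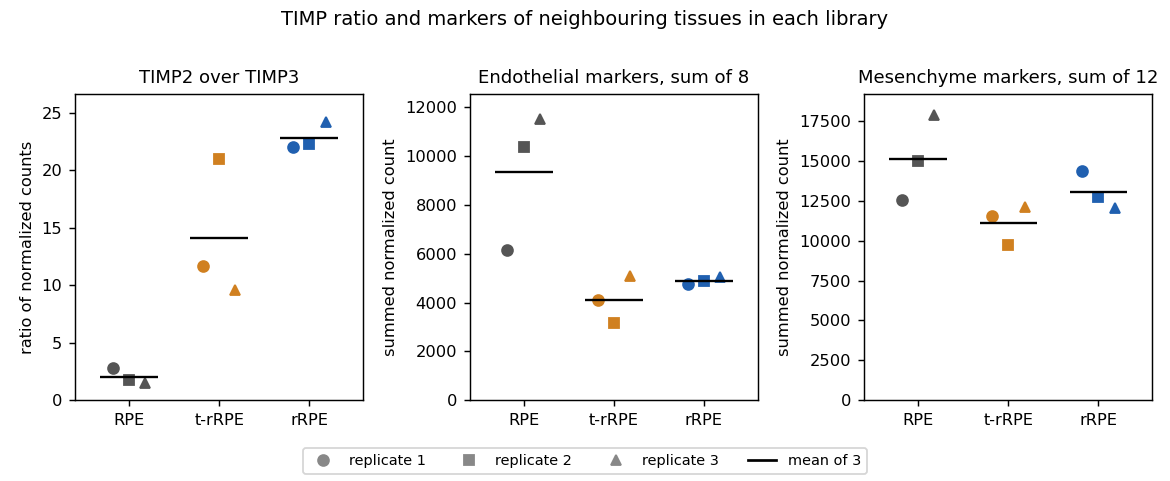
Ratio of *TIMP2* to *TIMP3* normalized counts, summed endothelial markers and summed mesenchyme markers in each library, with points for replicates and a bar for the mean of 3. The ratio rises from 1.53 to 2.82 in RPE to 22.0 to 24.2 in rRPE, the endothelial sum is lower in all operated libraries than in all RPE libraries, and the mesenchyme sums of RPE and rRPE overlap.

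Genes that work beside the members were followed through lists of related genes. For the counts in these lists, 12.4% and 12.0% of all genes tested had an unadjusted p of 0.05 or less in t-rRPE and rRPE against RPE. Over all 16535 genes edgeR called 48 and 101 in these comparisons, and DESeq2 507 and 575. Of 18 other matrix and membrane proteases measured, limma called 1 as higher and 0 as lower in rRPE against RPE, beside 1.03% of all genes tested. It was *HTRA1*, a secreted serine protease (log2 fold change of 1.67 with SE 0.33 and adjusted p = 0.0399). *HTRA1* was at 1912.4, 665.6 and 1151.1 in RPE, 1588.6, 1453.1 and 1186.1 in the t-rRPE libraries and 3276.1, 3767.5 and 3871.6 in rRPE. Of the 18, 3 had an unadjusted p of 0.05 or less in rRPE against RPE, edgeR called 0, and DESeq2 2 (*HTRA1* and *PCSK5*). *PCSK5* lay above RPE in every library of both operated groups, with log2 fold changes of 1.37 in t-rRPE and 1.45 in rRPE (adjusted p = 0.186 and 0.114). Limma called none of the 8 plasminogen genes measured in rRPE against RPE (3 with an unadjusted p of 0.05 or less, median log2 fold change 0.59), edgeR called 0 and DESeq2 3. Of these 3, *ANXA2* and *S100A10*, which together bind plasminogen at the cell surface, were higher in every rRPE than in every RPE library (limma adjusted p = 0.120 and 0.106). *SERPINF2* went the other way, at 0.0, 65.7 and 195.2 in RPE and 0 in all rRPE libraries (limma adjusted p = 0.396). DESeq2 also called *ANXA2* in t-rRPE against RPE. Of 20 other inhibitors and partners, limma called none in t-rRPE or rRPE against RPE (5 and 3 with an unadjusted p of 0.05 or less), edgeR 0, and DESeq2 3 (*FBLN2*, *RARRES1* and *SPOCK3*) and 1 (*RARRES1*). *RARRES1* lay below RPE in every operated library, with log2 fold changes of -2.92 in t-rRPE and -2.05 in rRPE (limma adjusted p = 0.0614 and 0.162). In t-rRPE every library lay above RPE for *SPOCK3* (1.43, adjusted p = 0.206) and below RPE for *FBLN2* (-1.90, adjusted p = 0.257). *RECK*, a membrane-anchored inhibitor of MMPs, overlapped between groups, with means of 1278.4 ± 300.5, 740.2 ± 325.7 and 807.7 ± 497.7 (SD, n = 3) in RPE, t-rRPE and rRPE.

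Among 28 matrix substrates, 1 rose and 2 fell in rRPE against RPE, and 1 fell in t-rRPE against RPE (medians -0.43 and -0.29), that is 3 and 1 of 28 beside the 1.03% and 0.671% of all genes tested that were called. In rRPE 9 of the 28 had an unadjusted p of 0.05 or less, edgeR called 1 (*TNC*) and DESeq2 the same 3. In t-rRPE 12 had such a p, edgeR called 0 and DESeq2 called 6, namely *COL1A1*, *COL4A1*, *DCN*, *FN1*, *TNC* and *VTN*. This list shares *COL1A1*, *COL1A2*, *COL3A1*, *DCN* and *LUM* with the mesenchyme markers given above, so the results of these lists are not independent. The part of neighbouring tissues in the matrix substrate results was not tested. *FN1* (fibronectin) fell from 7048.3 ± 233.5 (SD, n = 3) in RPE to 1970.3 ± 964.6 in rRPE (log2 fold change of -2.00 with SE 0.39 and adjusted p = 0.0362), and *FBN1*, the main microfibril protein, from 4702.7 ± 660.0 to 1552.4 ± 1051.9 (log2 fold change of -1.79 with SE 0.36 and adjusted p = 0.0449). *TNC*, a matrix glycoprotein of wounds and development, rose from 1673.4 ± 150.2 to 7814.2 ± 3439.5 (log2 fold change of 2.12 with SE 0.34 and adjusted p = 0.0156). In t-rRPE *FN1*, *FBN1* and *TNC* moved the same way, without overlap with RPE (log2 fold changes of -1.42, -1.13 and 1.43). Limma did not call them there (adjusted p = 0.168, 0.244 and 0.104) or between rRPE and t-rRPE (0.707, 0.610 and 0.567). *VTN* (vitronectin) was at 168.2, 100.9 and 187.5 in RPE, 0 in all t-rRPE libraries and 100.5, 219.3 and 35.9 in rRPE, and was called as lower in t-rRPE (adjusted p = 0.0250).

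Among 30 substrates of shedding, *NCAM1*, a neural cell adhesion molecule, fell in both groups, from 5408.0 ± 118.6 (SD, n = 3) in RPE to 2604.6 ± 568.3 after retinectomy alone (log2 fold change of -1.08 with SE 0.20 and adjusted p = 0.0389) and 2636.3 ± 336.0 in rRPE (log2 fold change of -1.04 with SE 0.20 and adjusted p = 0.0331). *IL6ST*, the shared receptor chain of the interleukin-6 family, rose in rRPE from 333.4 ± 91.8 to 1301.5 ± 272.0 (log2 fold change of 1.98 with SE 0.34 and adjusted p = 0.0236). In t-rRPE its mean was 696.6 ± 124.2, with every library above RPE, and it was not called by limma (log2 fold change of 1.08 with SE 0.34 and adjusted p = 0.237). *HBEGF*, a ligand released by ADAMs, was at 0.0, 0.0 and 34.6 in RPE, 0.0, 141.9 and 20.9 across t-rRPE and 108.6, 409.4 and 172.5 in rRPE, where it did not pass the test (adjusted p = 0.225). The median log2 fold change of the list was -0.53 in t-rRPE and -0.05 in rRPE against RPE. In t-rRPE limma called 1 of the 30 as lower, beside 0.671% of all genes tested (7 with an unadjusted p of 0.05 or less). EdgeR called 0 there and DESeq2 2 (*IL6ST* and *NCAM1*). In rRPE limma called 1 as higher and 1 as lower, beside 1.03% (6 with such a p), edgeR 2 and DESeq2 3. The calls of *HTRA1*, *FN1*, *FBN1*, *TNC*, *VTN*, *NCAM1*, *IL6ST* and *CDH5* kept their direction under all 20 alternatives, but with a library left out they held in only 0 to 4 of 9 fits. Of these 10 calls, 2 genes being called in both groups, 9 were lost without the trend (all but *VTN*) and 8 with only the 6 libraries compared (all but *NCAM1* and *CDH5* in rRPE). EdgeR lost 5, namely *HTRA1*, *FN1*, *FBN1*, *VTN* and, in t-rRPE, *NCAM1*, and the replicate block lost 3, namely *HTRA1*, *VTN* and, in t-rRPE, *NCAM1*.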

How the data were processed

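Reads were trimmed by the authors (Trim Galore 0.6.1, cutadapt 1.18), and the authors aligned them to GRCg6a with STAR 2.7.3, counted unstranded reads per gene with StringTie 2.0.4 and divided the counts by DESeq2 1.22.2 size factors. The deposited signal is this normalized count. Each value was a whole multiple of 1 read of its library (share whole 1, tolerance 1e-06), so reads were recovered for count tests.

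Genes whose normalized counts summed to 20 or more (16535, with 100 below) entered limma 3.58.1 as log2(normalized count + 1), fitted with a trend (R 4.3.3) in 1 group-means model of the 9 libraries. Adjusted p values are Benjamini-Hochberg values over all genes tested. The script was tested on simulated data with changes planted in t-rRPE alone and only in genes above a minimum mean. That test does not show how well changes in scarcer members are recovered. Alternatives were upper-quartile rescaling, quantile normalization, an offset of 0.5 or 5, no filter on low genes, a filter at a mean of 10, a replicate block, only the 6 libraries compared, limma without the trend, edgeR 4.0.16 and DESeq2 1.42.0 on recovered reads, and each library left out.

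The members and gene lists were chosen with earlier results of these data known. Values are given for every TIMP, every called member, *MMP9*, *MMP28*, *ADAMTS9*, *ADAMTS15* and *TIMP3*, the 5 largest log2 fold changes per comparison among members with a mean of at least 10, the 5 highest means per family, and genes in counts of 5 or fewer; others were named after their values were seen. Endothelial genes *ESAM* and *EMCN* and macrophage genes *LYZ*, *MARCO* and *AIF1* were not found under those names. ADAMs were grouped by known role, since protein sequences were not used here. Overlaps and neighbours come from RefSeq names of another build, GRCg7b, in which 41 of 43 members matched, and coordinates are not given. PCR copies carry no molecular identifiers, so floors cover counting error only.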

Additional observations from a re-analysis of the deposited data

How the results depend on the processing

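The limits come from 3 libraries per group and from the low counts of many members. No called member turned in direction under any of the 20 alternatives. For t-rRPE against RPE the 1 called member (*TIMP3*) became 0 with the replicate block, with only the 6 libraries compared, without the trend and with edgeR, became 2 with DESeq2 (*TIMP3* and *MMP9*), and ran from 0 to 1 when a library was left out. For rRPE against RPE the 3 called members became 0 without the trend and ran from 0 to 3 when a library was left out, with 0 left without RPE replicate 2, RPE replicate 3, rRPE replicate 1 or rRPE replicate 2, and 1 (*TIMP2*) left without RPE replicate 1 or rRPE replicate 3. For rRPE against t-rRPE the count was 0 in all 20. Over all genes, calls for t-rRPE and rRPE against RPE went from 111 and 170 to 48 and 101 with edgeR, 507 and 575 with DESeq2, and 0 and 0 without rRPE replicate 1. The cause of these changes was not tested, beyond the fewer samples of a fit with a library left out.

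Each library came from a separate embryo, so no embryo pairs libraries across groups. Same-numbered libraries of different groups had correlations of deviations of -0.031 to 0.06 (9 pairs), and other-numbered ones -0.064 to 0.03 (18 pairs). These small correlations cannot by themselves show that the replicate numbers mark no pairing. With the replicate block, *TIMP2*, *TIMP3* and *MMP9* stayed called in rRPE against RPE (count 3), the *TIMP3* call in t-rRPE was lost (count 0, adjusted p = 0.0592), and rRPE against t-rRPE stayed at 0, and of the 10 calls given for *HTRA1*, the substrates and *CDH5* 3 were lost.

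Of 43 log2 fold changes followed, each of a member in a comparison, 11 turned at least once, none of them called. These 43 were a part of all pairs of member and comparison and do not stand for the 43 members. With a library left out, *ADAM10* ran from -0.08 to 0.12 (t-rRPE against RPE), -0.11 to 0.15 (rRPE against RPE) and -0.14 to 0.12 (rRPE against t-rRPE), *ADAM17* from -0.15 to 0.34, -0.28 to 0.21 and -0.36 to 0.16, *ADAM9* from -0.40 to 0.01 (rRPE against t-rRPE), *MMP15* from -0.29 to 0.16 (t-rRPE against RPE) and -0.05 to 0.41 (rRPE against t-rRPE), *TIMP3* in rRPE against t-rRPE from -0.64 to 0.10 and *TIMP4* in rRPE against RPE from -3.86 to 0.02. *ADAM17* in rRPE against RPE was also 0.04 with edgeR and 0.04 with DESeq2, against -0.02. Members outside the pairs followed also turned with a library left out. Examples are *ADAM23* in rRPE against t-rRPE (-0.25 to 4.28), *ADAM33* in rRPE against RPE (-2.16 to 1.29) and *ADAM32* in t-rRPE against RPE (-0.68 to 2.75). The median log2 fold change of all genes lay between -0.014 and 0.005 under quantile normalization and upper-quartile rescaling. With edgeR and DESeq2 it lay between -0.018 and 0.021.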

Other observations

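Some members were carried by single libraries. *MMP13*, a collagenase, had 268 reads in RPE replicate 1 (257.5 normalized counts) and 0 in the other 8 libraries, *MMP7* (matrilysin) was at 22.4 in t-rRPE replicate 2 alone, and *MMP27* was at 5.6 in t-rRPE replicate 2 and 23.0 in rRPE replicate 2 alone. *MMP27* and *MMP7* are next to each other in the reference annotation, as are *ADAMTS8* and *ADAMTS15*, *ADAMTS1* and *ADAMTS5*, and *ADAM9* and *ADAM32*. In rRPE replicate 2 the neighbours *ADAMTS8* and *ADAMTS15* were at 61.6 and 82.5, while rRPE replicate 3 held 0.0 and 84.2. *ADAM32* and *ADAMTS12* each had a library at 0 and a library over 50 in all 3 groups. *ADAM32* was at 94.2, 0.0 and 2.3 in RPE, 0.0, 101.7 and 16.9 in the t-rRPE libraries and 51.8, 0.0 and 42.1 in rRPE, and *ADAMTS12* at 0.0, 100.9 and 173.7 in RPE, 0.0, 154.0 and 0.0 across t-rRPE and 70.1, 0.0 and 79.1 in rRPE.

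As summed normalized counts, the 11 ADAMs overlapped between groups, at 17053.6 to 21002.8 in RPE, 18147.8 to 24829.3 in t-rRPE and 18612.8 to 25967.8 in rRPE. The 3 TIMPs summed to 10411.1 to 11405.9 in RPE, 10583.9 to 14172.9 in t-rRPE and 16887.1 to 21510.2 in rRPE, where rRPE lay above both other groups. The 11 MMPs summed to 5867.6 to 6038.8 in RPE, 3394.2 to 6960.9 in t-rRPE and 5075.1 to 6044.5 in rRPE. These sums are led by the most counted gene of each family and were not tested.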
